A study of Sus scrofa with 56 samples.

Results

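The genes described here are the cell cycle and DNA replication genes of pig blood mononuclear cells. They were chosen from a list of 38 gene symbols by matching each symbol to an Ensembl gene ID. Of these, 32 were matched among the 24358 gene IDs of the count files, and all 32 passed the low-count filter in every comparison. The 20 mitosis genes are TOP2A, CCNB1, CCNB2, CDK1, BUB1, BUB1B, AURKB, PLK1, KIF11, KIF20A, KIF23, KIF2C, CENPA, CENPE, CENPF, TPX2, NUSAP1, CDC20, UBE2C and BIRC5. The 9 replication genes are MCM2, MCM3, MCM4, MCM6, MCM7, CDC6, CDC45, POLD1 and TYMS, and the 3 genes of entry into S phase are E2F1, CCNE1 and CCNE2. The symbols MKI67, CCNA2, AURKA, RRM2, MCM5 and PCNA had no matched ID and were not analysed here.

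The RNA came from peripheral blood mononuclear cells (lymphocytes and monocytes of the blood) of 28 multiparous sows (Sus scrofa). Blood was taken late in pregnancy, on day 98 of gestation (G98), and again on day 11 of lactation (L11), with 28 libraries per stage. The sows were housed conventionally or in an enriched environment, with 14 libraries of each at both stages. Parity was low (LP, gestation 2 or 3) in 15 G98 and 14 L11 libraries and high (HP, gestation 4 or higher) in 13 and 14. Dominance status was dominant in 9, intermediate in 11 and subordinate in 8 of the G98 libraries, and in 11, 9 and 8 of the L11 libraries. The experiment was run in 2 replicates, R1 and R2, with 14 libraries per stage in each, and 26 sows (14 in R1 and 12 in R2) had both stages in the same replicate. Sows T408 and T91919 had a G98 library alone, and sows T82133 and T82157 had an L11 library in each replicate, and by the ear tags these were taken as the same animals.

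A dividing cell passes from G1 into S phase, copies its DNA once, and then separates the copies in mitosis. Cyclin E and the factor E2F1 drive entry into S phase, the MCM helicase with CDC6 and CDC45 opens DNA at replication origins, and cyclin B with CDK1, the kinesin motors and the kinetochore proteins carry out mitosis. Most mononuclear cells in blood are at rest, and transcripts of these genes are known mainly from the dividing minority, such as activated lymphocytes and plasmablasts.

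Libraries held 18764208 to 24894794 counts at G98 and 18096879 to 25302990 at L11. Before TMM scaling, which adds a factor per library, 1 CPM, a count scaled to the depth of its library, stood for 18.1 to 25.3 counts. The CPM given below carry that scaling. The first principal component of the 500 most variable genes took 28.6% of the variance, and the replicate explained 63.2% of that component, against 26.6% for stage. Marker shares were taken from the TMM-scaled CPM, so they are not exact shares of the raw counts. Summed T cell markers took 0.181% to 0.323% over the 4 combinations of stage and replicate. Erythroid markers reached 12.2% in 1 R1 library at G98 (median 1.42% there, and 0.217% for R2). At L11 their medians were 0.0400% for R1 and 0.132% for R2. The L11 library of sow T83888 held 7306 CPM of monocyte markers, against 3377 CPM in the next highest L11 library.

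Levels between genes were compared with the deposited TPM, which is scaled per transcript length. Replication genes had a median TPM of 11.6 (range of gene medians 2.30 to 59.2), and mitosis genes one of 4.72 (1.82 to 21.9). The helicase subunit MCM7 was the most abundant member, with a median TPM of 59.2 and a range of 32.5 to 94.6 over the 56 libraries. Thymidylate synthase, TYMS, which makes the thymidine precursor of DNA, followed at 44.1, and the helicase subunit MCM6 at 27.0. Among mitosis genes the ubiquitin-conjugating enzyme UBE2C, which serves the anaphase-promoting complex, had the highest median TPM, 21.9. The kinesin KIF20A had the lowest of all members, 1.82, where its estimated counts ran from 43 to 255 per library.

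Mitosis genes varied more between sows than replication genes. The SD of log2 CPM within a stage and replicate had a median of 0.41 over the mitosis genes (0.19 to 0.63) and of 0.23 over the replication genes (0.17 to 0.28). The kinetochore motor CENPE was the most variable member, at 0.63, and MCM7 the least, at 0.17. NUSAP1, a microtubule-binding protein of the spindle, was the mitosis gene with the smallest SD, 0.19. These SDs hold counting error as well as differences between sows, and the mitosis genes had the lower counts.

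**Figure D1:**
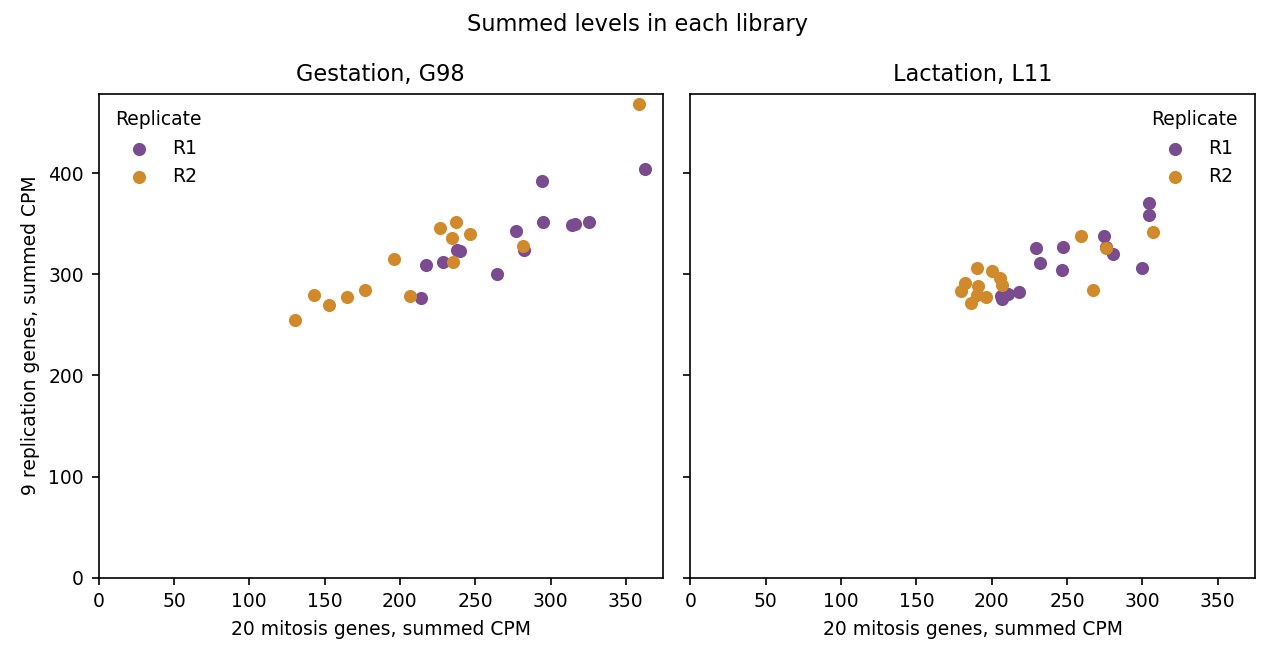
Each point is 1 library. The x axis is the summed TMM-scaled CPM of the 20 mitosis genes and the y axis that of the 9 replication genes, at G98 (left) and L11 (right), with R1 and R2 in different colours. At G98 the R2 libraries spread from 131 to 359 CPM in the mitosis sum, against 214 to 363 CPM in R1, and at L11 most R2 libraries sit near 200 CPM.

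Single libraries stood out across many members at once, so the signs of the members within a comparison are not independent. At G98 in R2 the library of sow T454, an enriched LP sow of intermediate rank, was the highest of 14 for 17 of the 20 mitosis genes and for 8 of the 9 replication genes. Its mitosis genes summed to 359 CPM and its replication genes to 468 CPM, where the group medians were 217 and 313 CPM. The library of T91645, a conventional HP subordinate sow, was the lowest of the same 14 for 13 mitosis genes and 5 replication genes, with sums of 131 and 255 CPM. In R1 at G98 sow T93204 was the highest for 11 mitosis genes. At L11 the 2 libraries of sow T82157 were the highest of their replicates in the mitosis sum, at 305 CPM in R1 and 307 CPM in R2. The other sow with a library in each replicate, T82133, had 280 CPM in R1 and 200.3 CPM in R2.

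Between G98 and L11, measured within sows, 17 of the 32 genes differed, 7 higher and 10 lower at L11 (edgeR quasi-likelihood test, adjusted p under 0.05). Among all 12349 genes tested 56.6% differed, 28.4% upward and 28.2% downward, so the share among the members, 53.1%, lay near that of the background. The median log2 change of the 32 genes was -0.029, beside 0.0037 for all genes. Of the replication genes 2 rose and 5 fell (median -0.14), and of the mitosis genes 4 rose and 4 fell (median -0.023). In bulk RNA fewer dividing cells and less RNA per dividing cell cannot be told apart. Without the pairing by sow 10 members were called, 3 higher and 7 lower, and the calls of CENPE, UBE2C, BIRC5, CDK1, E2F1, MCM6 and CDC6 were lost (adjusted p from 0.0788 to 0.173). With a correction for transcript length 12 were called, 3 higher and 9 lower. Among all 12349 genes 5780 were called without the pairing and 6741 with the length correction.

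CDC45, a subunit of the active replicative helicase, rose within sows more often than any other member. Its gene, ENSSSCG00000010122, lies on chromosome 14 from 51133111 to 51158604 of Sscrofa11.1. In R1 it ran from 11.5 to 17.8 CPM at G98 (median 14.6) and from 14.2 to 22.8 CPM at L11 (median 18.4). In R2 it ran from 10.7 to 22.1 CPM (median 14.2) and from 15.4 to 27.6 CPM (median 19.8). The ranges overlapped in both replicates, and within sows the level was higher at L11 in 24 of 26. The log2 change was 0.43 ± 0.06 (SE; edgeR adjusted p = 3.05e-07).

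Of the MCM subunits of the same helicase 3 fell and none rose. MCM2 had medians of 25.4 CPM at G98 (21.4 to 33.2) and 21.6 CPM at L11 (16.6 to 27.4) in R1, and of 26.1 (16.7 to 43.5) and 20.6 CPM (18.5 to 24.8) in R2. The stages overlapped, and MCM2 was higher at L11 in 5 of 26 sows, a fall by 0.28 ± 0.05 on the log2 scale (adjusted p = 6.73e-05, edgeR). MCM3 fell by 0.26 ± 0.05 (adjusted p = 0.000112) and MCM6 by 0.14 ± 0.05 (adjusted p = 0.0338), each higher at L11 in 5 of 26 sows. MCM4 and MCM7 did not pass the test (-0.012 ± 0.05 and -0.032 ± 0.04), and they were higher at L11 in 14 and 13 of 26 sows. MCM6 lost its call on leaving out any of sows T454, T83410, T91533 or T93220 (adjusted p from 0.0506 to 0.0608).

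POLD1 and TYMS fell. POLD1, the catalytic subunit of DNA polymerase delta, had medians of 25.5 CPM at G98 (21.3 to 35.8) and 23.0 CPM at L11 (18.1 to 30.8) in R1, and of 29.1 (24.7 to 38.6) and 23.5 CPM (17.8 to 28.8) in R2. It was higher at L11 in 5 of 26 sows, and it fell by 0.28 ± 0.05 on the log2 scale (adjusted p = 6.12e-05, edgeR). TYMS fell by 0.21 ± 0.04 (adjusted p = 0.000105), with R1 medians of 40.5 CPM (31.7 to 48.8) and 35.0 CPM (31.1 to 43.0). CDC6, which loads the helicase onto origins, rose by 0.17 ± 0.07 (adjusted p = 0.0461), a call that was lost on leaving out any of 19 single sows.

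**Figure D2:**
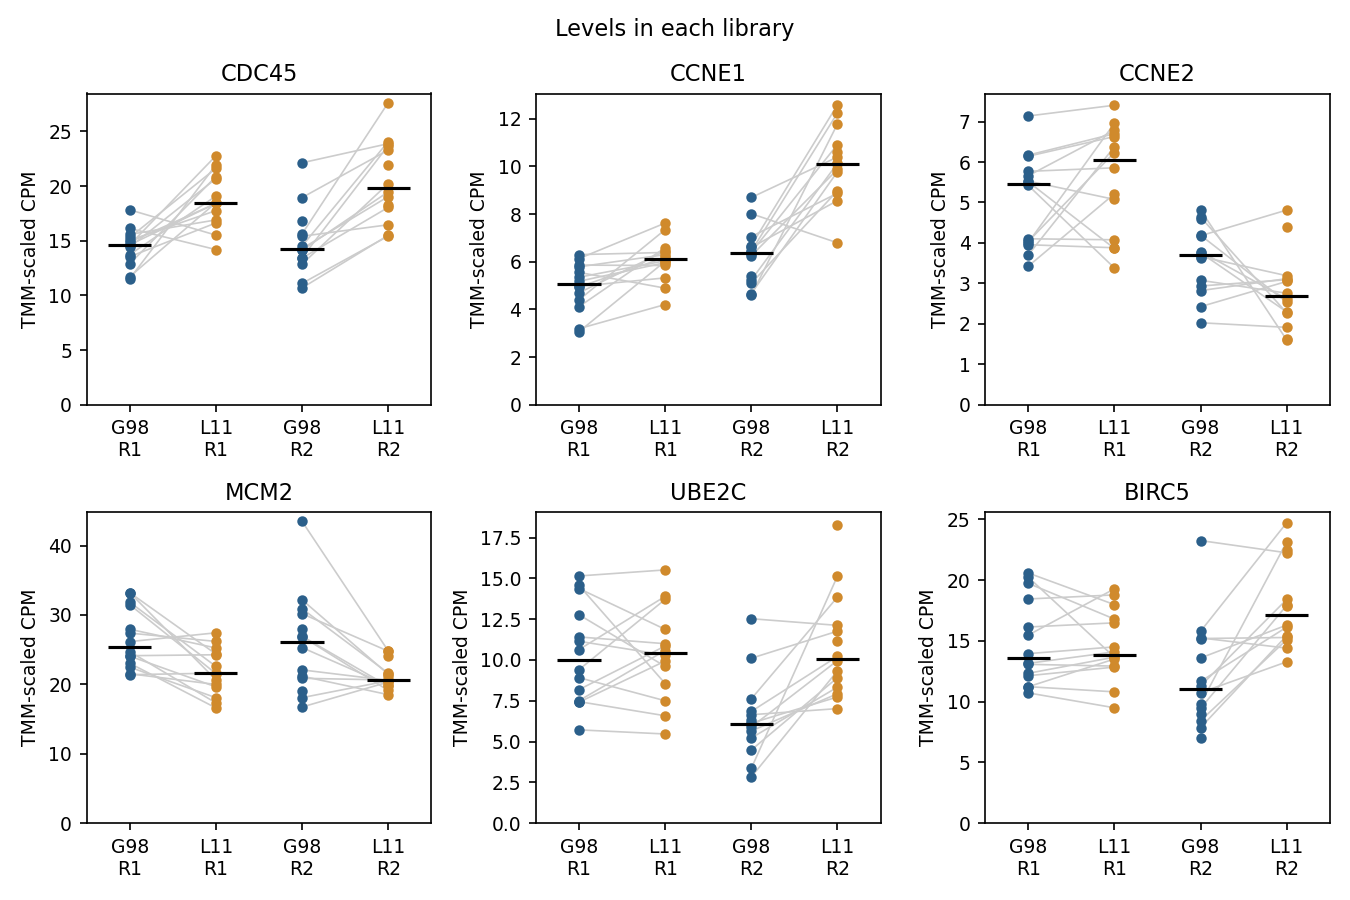
Points are libraries, grey lines join the same sow within a replicate and black bars are group medians. The y axes give TMM-scaled CPM from 0 for CDC45, CCNE1, CCNE2, MCM2, UBE2C and BIRC5, by stage and replicate. CDC45 and CCNE1 are higher at L11 in most sows of both replicates, whereas UBE2C and BIRC5 are higher at L11 mainly in R2.

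Within the replicates the replication genes had like counts. In R1, 12 members were called (43.0% of all genes), and 5 replication genes fell while CDC45 and CDC6 rose. In R2, 12 members were called as well (48.3% of all genes), and 4 replication genes fell while CDC45 rose. None of the 9 replication genes differed between the replicates in its stage change by edgeR's interaction test, beside 20.1% of all genes. Their unadjusted p was 0.05 or above throughout, whereas 4162 of 12729 genes had one under 0.05. CDC45 rose by 0.37 ± 0.08 in R1 (adjusted p = 0.00134) and by 0.50 ± 0.08 in R2 (adjusted p = 9.35e-05). MCM2 fell by 0.29 ± 0.06 in R1 (adjusted p = 0.00141) and by 0.27 ± 0.09 in R2 (adjusted p = 0.0226), the second lost without T454. MCM3 fell by 0.28 ± 0.06 in R1 (adjusted p = 0.000880) and by 0.24 ± 0.09 in R2 (adjusted p = 0.0416), the second lost without T382, T454, T619, T704, T83868, T91533 or T91675. POLD1 fell by 0.22 ± 0.07 in R1 (adjusted p = 0.0234), lost without T91522, T93204 or T93220, and by 0.34 ± 0.07 in R2 (adjusted p = 0.000938). TYMS fell by 0.20 ± 0.06 (adjusted p = 0.00877) and 0.22 ± 0.06 (adjusted p = 0.00969). MCM6 fell in R1 by 0.20 ± 0.04 (adjusted p = 0.000818). CDC6 rose in R1 by 0.26 ± 0.09 (adjusted p = 0.0265), lost without T82133.

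The mitosis genes gave different counts in the replicates. In R1 none of the 20 rose and 4 fell (median -0.12), and in R2 4 rose and 2 fell (median 0.12). Among all genes 21.1% rose and 21.9% fell in R1, and 24.9% rose and 23.4% fell in R2. The falls in R1 and the rises in R2 thus lay near the shares of all genes. UBE2C (ENSSSCG00000007423, chromosome 17 from 48018403 to 48021542) had medians of 10.02 CPM at G98 (5.72 to 15.2) and 10.4 CPM at L11 (5.47 to 15.5) in R1, and of 6.10 (2.83 to 12.5) and 10.1 CPM (7.02 to 18.3) in R2. The G98 libraries of R2 were thus the low group, with ranges that overlapped the others. UBE2C was higher at L11 in 6 of 14 sows in R1 and in 11 of 12 in R2, and in R2 it rose by 0.73 ± 0.17 (adjusted p = 0.00236, edgeR). BIRC5, or survivin, a member of the chromosomal passenger complex, had R2 medians of 11.0 CPM at G98 (7.03 to 23.3) and 17.1 CPM at L11 (13.3 to 24.7), against 13.5 (10.7 to 20.6) and 13.9 CPM (9.49 to 19.3) in R1. It rose in R2 by 0.53 ± 0.12 (adjusted p = 0.00200). CDK1, the kinase of mitotic entry, rose in R2 by 0.58 ± 0.16 (adjusted p = 0.00778), and KIF2C, a kinesin that takes microtubules apart at the centromere, by 0.46 ± 0.15 (adjusted p = 0.0198).

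The difference between the replicates in the stage change was tested directly and passed for 3 of the 32 genes, all of them mitosis genes with a larger value in R2. Among all genes 20.1% passed, 10.8% upward and 9.38% downward. The term, the R2 change minus the R1 change, was 0.53 ± 0.13 for BIRC5 (adjusted p = 0.00495), 0.70 ± 0.20 for UBE2C (adjusted p = 0.0110) and 0.30 ± 0.09 for NUSAP1 (adjusted p = 0.0253). NUSAP1 fell in R1 by 0.31 ± 0.07 (adjusted p = 0.00162) and had a value of 0.01 in R2. Its medians were 21.0 CPM at G98 (18.8 to 28.1) and 17.4 CPM at L11 (14.8 to 21.5) in R1, and 20.5 (17.0 to 24.97) and 19.2 CPM (14.1 to 28.2) in R2. DESeq2 called 5 members for this term, beside 2838 of 12729 genes.

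A further set of mitosis genes fell. CENPF, a kinetochore protein, had medians of 33.5 CPM at G98 (28.0 to 46.7) and 25.8 CPM at L11 (19.3 to 36.3) in R1, and of 24.5 (15.3 to 37.4) and 16.6 CPM (11.4 to 26.9) in R2. It was lower at L11 in 22 of 26 sows, although the ranges overlapped, and fell by 0.34 ± 0.09 in R1 (adjusted p = 0.00651) and by 0.58 ± 0.11 in R2 (adjusted p = 0.000442). KIF11, the kinesin that pushes the spindle poles apart, fell in R1 by 0.34 ± 0.11 (adjusted p = 0.0228) and had -0.26 ± 0.15 in R2, which did not pass. TOP2A, the topoisomerase that untangles sister DNA, fell in R1 by 0.19 ± 0.06 (adjusted p = 0.0165). CENPE fell in R2 by 0.66 ± 0.14 (adjusted p = 0.00113). Over both replicates the falls were 0.45 ± 0.08 for CENPF (adjusted p = 1.26e-05), 0.41 ± 0.10 for CENPE (adjusted p = 0.000642), 0.31 ± 0.10 for KIF11 (adjusted p = 0.00764) and 0.16 ± 0.05 for NUSAP1 (adjusted p = 0.0130). The rises over both replicates were 0.34 ± 0.12 for CDK1 (adjusted p = 0.0195), 0.33 ± 0.12 for UBE2C (adjusted p = 0.0170), 0.24 ± 0.09 for KIF2C (adjusted p = 0.0238) and 0.23 ± 0.08 for BIRC5 (adjusted p = 0.0183). The other 12 mitosis genes did not pass, and their values ran from -0.11 for CCNB1 to 0.19 for AURKB, the catalytic kinase of the passenger complex.

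**Figure D3:**
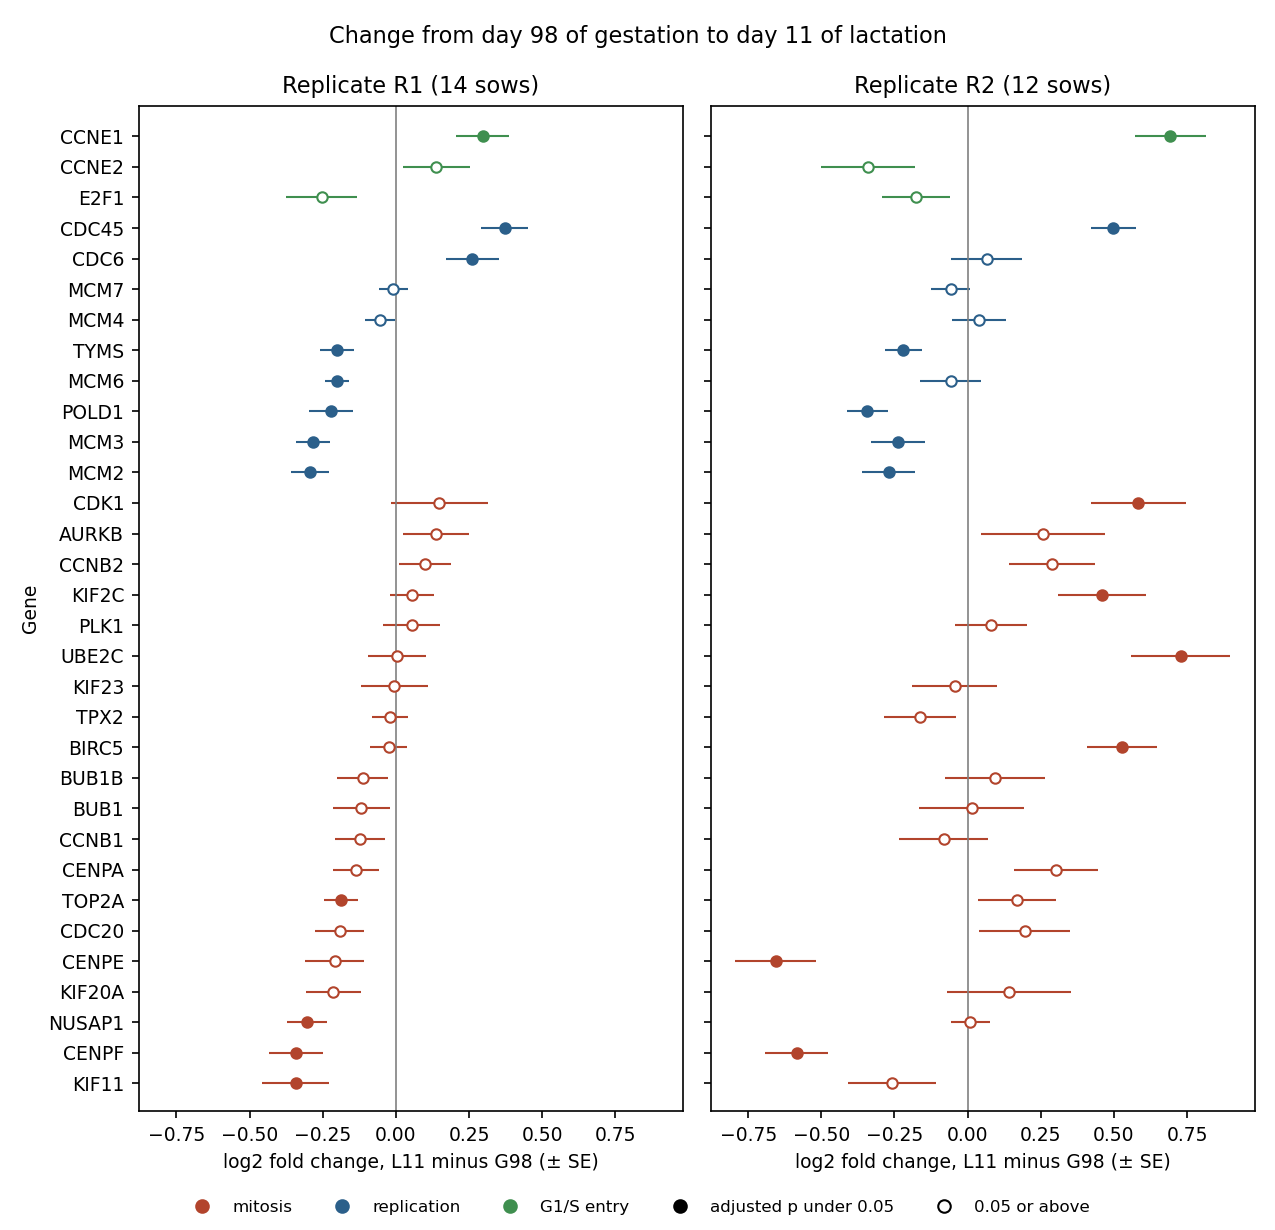
Each row is a gene and each point its log2 fold change from G98 to L11 with its standard error, in R1 (left, 14 sows) and R2 (right, 12 sows). Filled points passed an adjusted p of 0.05. Among the blue replication genes CDC45 lies to the right of 0 and MCM2, MCM3, POLD1 and TYMS to the left in both panels, all filled, and UBE2C, CDK1, BIRC5 and KIF2C are filled and to the right in R2 but not filled in R1.

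Transcript length moved with stage over the whole table. With all genes split by length into 5 classes of like size, the shortest class had a median log2 change of 0.14 and the longest one of -0.11, with 0.05 and -0.07 in R1 and 0.24 and -0.15 in R2. UBE2C (837 bases), CDK1 (1533 bases) and BIRC5 (1577 bases) lie in the shortest class, and CENPF (9141 bases), CENPE (8680 bases) and CDC45 (5955 bases) in the longest. With the length correction the calls over both replicates of UBE2C, CDK1, BIRC5, CDC6 and NUSAP1 were lost. In that fit CDC45 rose by 0.52 ± 0.06 (adjusted p = 2.63e-08), CENPF fell by 0.22 ± 0.07 (adjusted p = 0.0120) and CENPE by 0.20 ± 0.08 (adjusted p = 0.04995). In R2 the correction left 0.38 ± 0.17 for UBE2C (adjusted p = 0.0826), 0.40 ± 0.17 for CDK1 (adjusted p = 0.0669) and 0.35 ± 0.11 for BIRC5 (adjusted p = 0.0138), and the calls of MCM2 and MCM3 were lost (adjusted p = 0.0652 and 0.099997). It also gained calls in R2, a rise of 0.41 ± 0.15 for TOP2A (adjusted p = 0.0350) and a fall by 0.42 ± 0.12 for E2F1 (adjusted p = 0.0132). In R1 it lost CENPF (adjusted p = 0.163) and TOP2A (adjusted p = 0.671) and gained E2F1, which fell by 0.31 ± 0.11 (adjusted p = 0.0312). The term between replicates passed for BIRC5 and NUSAP1 under the correction and not for UBE2C (0.44 ± 0.20, adjusted p = 0.130).

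Among the 3 genes of S phase entry, CCNE1, which encodes cyclin E1, rose in both replicates. CCNE1 (ENSSSCG00000002855) lies on chromosome 6 from 39919541 to 39933224. In R1 it had medians of 5.07 CPM at G98 (3.06 to 6.30) and 6.11 CPM at L11 (4.20 to 7.62), and in R2 of 6.37 (4.59 to 8.70) and 10.1 CPM (6.80 to 12.6). In R2 the stages overlapped only between 6.80 and 8.70 CPM, and CCNE1 was higher at L11 in 23 of 26 sows. It rose by 0.48 ± 0.08 over both replicates (adjusted p = 1.12e-05, edgeR), by 0.30 ± 0.09 in R1 (adjusted p = 0.0129) and by 0.69 ± 0.12 in R2 (adjusted p = 0.000276). The related CCNE2, cyclin E2, was not called for stage in either replicate, with R1 medians of 5.47 and 6.05 CPM and R2 medians of 3.71 and 2.68 CPM. E2F1, the transcription factor that switches on S phase genes, fell over both replicates by 0.22 ± 0.08 (adjusted p = 0.0259), and was lower at L11 in 17 of 26 sows.

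Cell type markers were tested with stage as well, where 56.6% of all genes passed (28.4% upward and 28.2% downward). All 10 erythroid markers tested fell (median -2.55), 7 of 9 plasma cell markers rose and 1 fell (median 0.25), 6 of 11 cytotoxic and NK cell markers rose and 1 fell (median 0.16), and 4 of 7 monocyte markers (median 0.42) and 4 of 4 granulocyte markers (median 1.14) rose. B cell markers had 1 fall of 7, T cell markers 1 rise and 4 falls of 10, and platelet markers 2 falls of 5. The called shares of these 3 lists lay below that of all genes, and that of the monocyte list lay near it. Plasma cell markers went with the replicate: 8 of 9 rose in R2 (24.9% of all genes) and none in R1 (21.1% of all genes), where 1 fell. The term between replicates passed for 7 of 9, beside 20.1% of all genes. It also passed for 5 of 10 erythroid markers. Plasma cell transcripts took medians of 0.0471% and 0.0509% of the TMM-scaled counts at G98 and L11 in R1, and of 0.0342% and 0.0521% in R2. The part of these cell types in the changes of the cell cycle genes was not tested.

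Other genes of the same pathways changed with stage in both directions, where 28.4% of all genes rose and 28.2% fell. Of 45 other replication genes 9 rose and 14 fell (median -0.054). GMNN, or geminin, which blocks repeated licensing, rose by 0.62 ± 0.06 (adjusted p = 2.37e-09), DUT, which removes dUTP, by 0.59 ± 0.06 (adjusted p = 3.21e-09) and RPA3, of the single-strand binding complex, by 0.71 ± 0.10 (adjusted p = 1.37e-06). The catalytic subunits of the other replicative polymerases fell, POLA1 by 0.48 ± 0.05 (adjusted p = 1.52e-08) and POLE by 0.60 ± 0.08 (adjusted p = 3.24e-07), as did the clamp loader subunit RFC1 by 0.45 ± 0.06 (adjusted p = 1.12e-07). Of 44 other mitosis genes 3 rose and 13 fell (median -0.088). The risers were the chromatin protein HMGB2 by 0.59 ± 0.06 (adjusted p = 8.42e-10), and the kinetochore proteins SKA1 by 0.46 ± 0.15 (adjusted p = 0.00926) and SPC24 by 0.39 ± 0.13 (adjusted p = 0.0121). INCENP, the scaffold of the passenger complex, fell by 0.29 ± 0.05 (adjusted p = 9.43e-06), SKA3 by 0.26 ± 0.05 (adjusted p = 7.97e-05) and the condensin subunit SMC2 by 0.36 ± 0.08 (adjusted p = 0.000213).

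Of 37 cell cycle regulators 7 rose and 12 fell with stage (median -0.091), beside 28.4% and 28.2% of all genes. CKS2, a small partner of the cyclin-dependent kinases, rose by 0.76 ± 0.07 (adjusted p = 1.78e-10), the repressor complex subunit LIN37 by 0.45 ± 0.05 (adjusted p = 7.26e-08) and the G1 kinase CDK4 by 0.32 ± 0.04 (adjusted p = 3.55e-07). CDK6, the other G1 kinase, fell by 0.95 ± 0.10 (adjusted p = 3.77e-09), the E2F partner TFDP1 by 0.26 ± 0.03 (adjusted p = 2.72e-08) and the pocket protein RBL2 by 0.45 ± 0.07 (adjusted p = 8.60e-06). Of 16 checkpoint and repair genes 2 rose and 9 fell (median -0.18). The checkpoint kinase CHEK2 rose by 0.59 ± 0.05 (adjusted p = 9.80e-11) and the nuclease EXO1 by 0.37 ± 0.12 (adjusted p = 0.00916). Among those that fell, FANCD2 fell by 0.31 ± 0.06 (adjusted p = 7.36e-05) and BRCA1 by 0.24 ± 0.06 (adjusted p = 0.000909).

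Within the replicates the pathway lists were counted as well. Among all genes 21.1% rose and 21.9% fell in R1, and 24.9% rose and 23.4% fell in R2. Of the other replication genes 11 rose and 11 fell in R1, and 10 rose and 13 fell in R2. GMNN (0.57), DUT (0.38) and the origin subunit ORC4 (0.60) rose with the smallest p in R1, and RPA3 (1.19), DUT (0.84) and the polymerase epsilon subunit POLE3 (0.51) in R2, in log2 units. Of the other mitosis genes 2 rose and 8 fell in R1, and 4 rose and 7 fell in R2, where MAD2L1 (0.61) and SPC24 (0.72) were among the risers. Of the regulators 5 rose and 10 fell in R1, and 8 rose and 11 fell in R2. CKS2 rose by 0.76 and 0.77 and CDK6 fell by 0.97 and 0.92. Of the checkpoint and repair genes 2 rose and 3 fell in R1, and 2 rose and 11 fell in R2, where BRCA2 fell by 0.75.

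In the pathway lists the stage change differed between replicates for 5 upward and 8 downward of 45 replication genes, 2 upward and 1 downward of 44 mitosis genes, 3 and 5 of 37 regulators and 1 and 5 of 16 checkpoint genes. Beside these, 10.8% of all genes passed upward and 9.38% downward. The largest of the named terms were 0.86 ± 0.14 for RPA3 (adjusted p = 7.39e-05), 0.72 ± 0.14 for the spindle checkpoint gene MAD2L1 (adjusted p = 0.000514) and 1.12 ± 0.26 for CDKN1A (adjusted p = 0.00312), which encodes the kinase inhibitor p21. CDC7, the kinase that fires origins, had -0.53 ± 0.11 (adjusted p = 0.000746) and MDM2, a ubiquitin ligase, -0.46 ± 0.08 (adjusted p = 0.000199).

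The experimental replicates differed at a fixed stage as well. At G98, 14 of the 32 genes differed, 2 higher and 12 lower in R2, beside 40.1% of all genes (19.1% higher and 21.0% lower in R2). All 20 mitosis genes had a negative estimate, 9 of them called (median -0.43, beside 0.00080 for all genes), and 2 of 9 replication genes were lower (median -0.043). Without the library of sow T454, 21 members differed at G98, 1 higher and 20 lower, and E2F1 lost its call (adjusted p = 0.0628). In that fit, chosen after seeing the data, 4687 of 12254 genes differed.

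CCNB1, or cyclin B1, which with CDK1 triggers mitosis, was lower in R2 at both stages. At G98 it ran from 5.39 to 10.8 CPM in R1 (median 7.33) and from 1.97 to 9.69 CPM in R2 (median 4.24), with 11 of 14 R2 libraries below every R1 library. At L11 it ran from 4.16 to 9.03 CPM (median 7.52) and from 2.77 to 8.28 CPM (median 3.95), with 7 of 14 below every R1 library. The difference, R2 minus R1 on the log2 scale, was -0.81 ± 0.17 at G98 (adjusted p = 0.000381, edgeR) and -0.75 ± 0.16 at L11 (adjusted p = 0.000248). CDK1 had -0.79 ± 0.18 at G98 (adjusted p = 0.000805), CENPF -0.46 ± 0.11 (adjusted p = 0.00160), UBE2C -0.69 ± 0.18 (adjusted p = 0.00258), KIF11 -0.58 ± 0.17 (adjusted p = 0.00646) and BUB1B, a spindle checkpoint kinase, -0.51 ± 0.16 (adjusted p = 0.00901). The centromeric histone CENPA, KIF20A and the checkpoint target CDC20 were also lower at G98, with values from -0.53 to -0.50. The other 11 mitosis genes did not pass there, with values from -0.54 for CENPE to -0.058 for NUSAP1. Of the replication genes MCM6 had -0.37 ± 0.09 (adjusted p = 0.00109) and CDC6 -0.34 ± 0.11 (adjusted p = 0.0183).

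At L11, 13 of the 32 genes differed, 2 higher and 11 lower in R2, beside 43.1% of all genes (21.9% higher and 21.2% lower). Of the mitosis genes 1 was higher and 8 lower (median -0.31, beside 0.015 for all genes), and 2 of 9 replication genes were lower. BIRC5 was the mitosis gene that was higher in R2, 0.30 ± 0.11 (adjusted p = 0.0239). CENPF had -0.69 ± 0.12 (adjusted p = 1.76e-05), with 11 of 14 R2 libraries below every R1 library. TPX2, which activates the Aurora A kinase at the spindle, had -0.46 ± 0.12 (adjusted p = 0.00207), KIF11 -0.53 ± 0.14 (adjusted p = 0.00232) and PLK1, the polo kinase, -0.31 ± 0.11 (adjusted p = 0.0297). CDC6 had -0.55 ± 0.11 (adjusted p = 0.000188). MCM3 had -0.23 ± 0.09 (adjusted p = 0.0335), KIF23 -0.33 ± 0.13 (adjusted p = 0.0382) and BUB1B -0.36 ± 0.14 (adjusted p = 0.0443). Leaving out the R2 libraries of the 2 sows sampled in both replicates gave 16 called members, with BIRC5 lost (adjusted p = 0.0501), and leaving out the library of T83888 gave 17. Those fits called 5160 of 12311 and 5424 of 12265 genes.

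The cyclin E genes differed between the replicates in opposite directions. CCNE1 was higher in R2 by 0.33 ± 0.11 at G98 (adjusted p = 0.0185) and by 0.73 ± 0.09 at L11 (adjusted p = 1.21e-07, edgeR), where 13 of 14 R2 libraries lay above every R1 library. CCNE2 ran from 3.42 to 7.14 CPM in R1 and from 2.03 to 4.82 CPM in R2 at G98, and from 3.38 to 7.41 and 1.60 to 4.81 CPM at L11. At L11, 12 of 14 R2 libraries lay below every R1 library. The differences of CCNE2 were -0.48 ± 0.13 at G98 (adjusted p = 0.00417) and -1.001 ± 0.16 at L11 (adjusted p = 6.91e-06). E2F1 was higher in R2 at G98, 0.33 ± 0.12 (adjusted p = 0.0286), and at L11 its value of 0.33 did not pass.

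**Figure D4:**
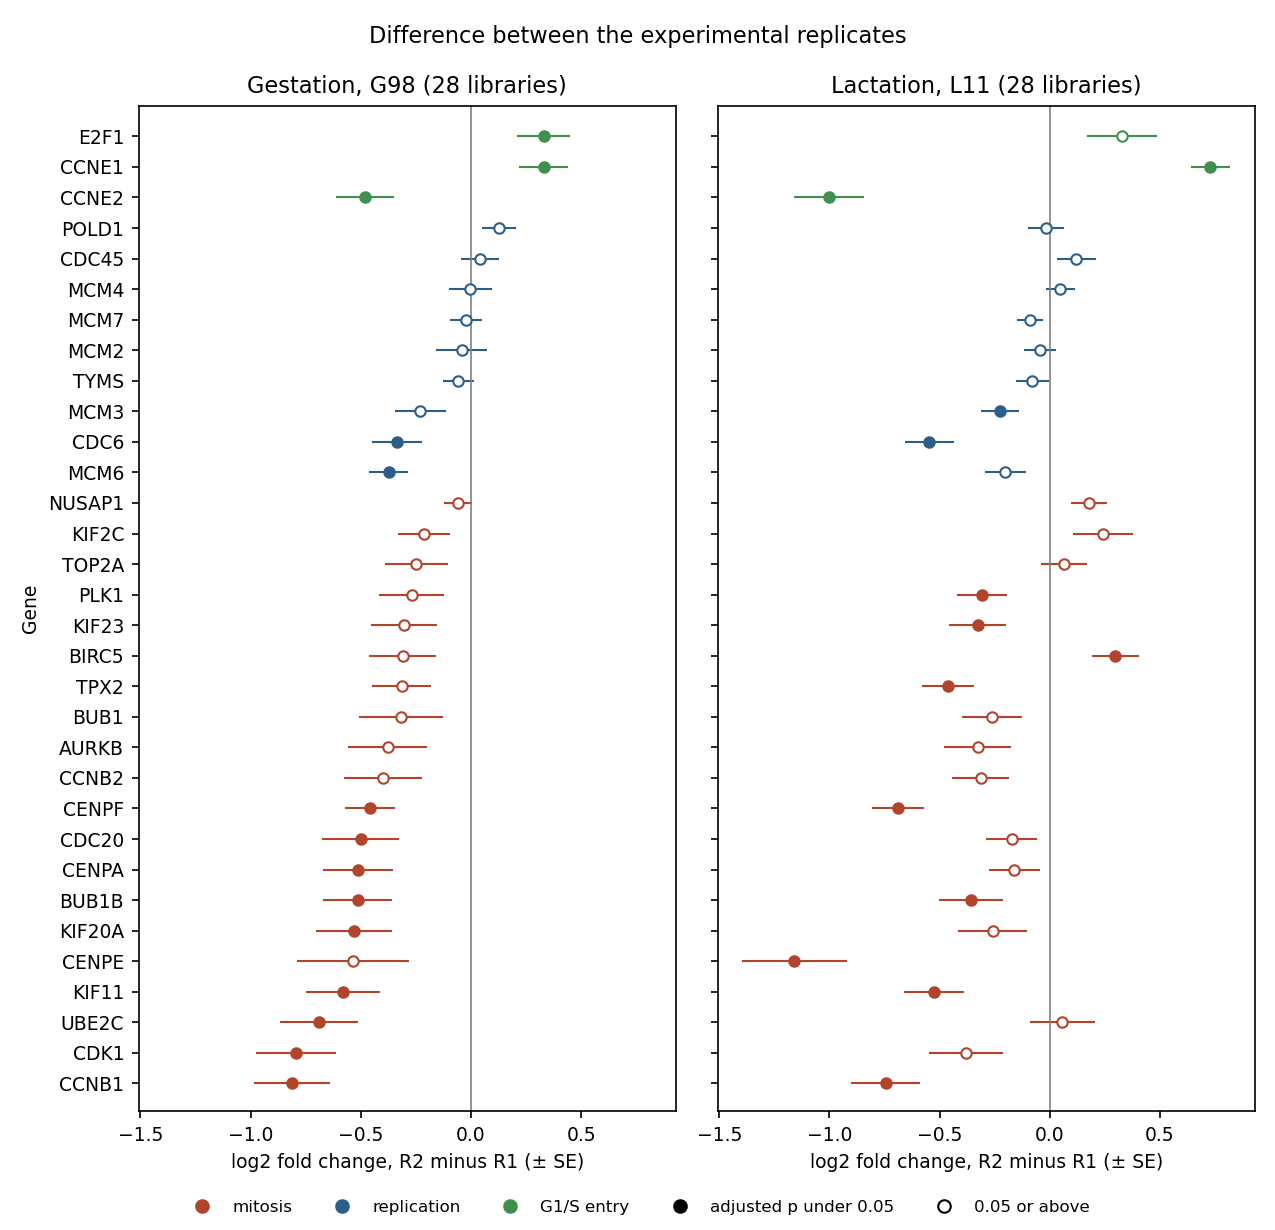
Each row is a gene and each point its log2 fold change between the replicates, R2 minus R1, with its standard error, at G98 (left) and L11 (right), 28 libraries each. Filled points passed an adjusted p of 0.05. All 20 mitosis genes lie left of 0 at G98, and CCNE1 and CCNE2 lie on opposite sides of 0 in both panels.

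The other pathway genes gave the following counts between the replicates. Among all genes 19.1% were higher and 21.0% lower in R2 at G98, and 21.9% and 21.2% at L11. Of 44 other mitosis genes 1 was higher and 23 lower in R2 at G98 (median -0.37), and 2 and 20 at L11 (median -0.29). The spindle protein CKAP2L had -0.84 ± 0.14 at G98 (adjusted p = 1.68e-05) and the kinetochore protein NDC80 -0.78 ± 0.15 at L11 (adjusted p = 0.000106). Of 45 other replication genes 1 was higher and 9 lower at G98, and 4 and 18 at L11. Of 37 regulators 8 were higher and 7 lower at G98, and 8 and 13 at L11. CDKN1A was the largest of these, 1.34 ± 0.17 at G98 (adjusted p = 2.21e-07) and 2.43 ± 0.21 at L11 (adjusted p = 1.36e-10), followed by CKS2 with 1.02 ± 0.09 (adjusted p = 3.26e-10) and 1.00 ± 0.09 (adjusted p = 6.69e-10). Of 16 checkpoint genes 1 was higher and 5 lower at G98, and none higher and 10 lower at L11, among them BARD1 with -1.15 ± 0.15 at L11 (adjusted p = 4.30e-07).

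Erythroid markers differed between the replicates at G98, where 8 of 10 were lower in R2 (median -2.79), and at L11 none of 7 passed (median -0.62). At G98, 3 of 9 plasma cell markers were lower in R2 (median -0.21), and at L11 4 were higher and 1 lower. Monocyte markers had 1 higher and 1 lower of 7 at G98 and 4 higher of 7 at L11. Beside these marker counts, 40.1% of all genes differed at G98 and 43.1% at L11. All-gene medians by length ran from -0.07 in the shortest to 0.06 in the longest class at G98, and from 0.13 to -0.02 at L11. With the length correction 14 members were called at each stage, beside 5059 of 12273 genes at G98 and 5392 of 12298 at L11. At L11 that correction lost the calls of MCM3, KIF23 and BUB1B and gained NUSAP1 as higher and AURKB, CDK1 and CCNB2 as lower in R2. The labels do not say what else differed between R1 and R2, and the part of these values in the result was not tested.

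CENPE, which moves chromosomes to the spindle equator, separated 3 sows from all others. Its gene, ENSSSCG00000023296, lies on chromosome 8 from 117888968 to 117965325. At G98 sows T93157 and T91403 of R1 had 44.4 and 45.3 CPM and sow T619 of R2 had 48.2 CPM, whereas the other 25 libraries did not exceed 22.1 CPM. At L11 the same 3 sows had 44.5, 41.7 and 16.7 CPM, against 9.11 to 19.8 CPM in the other 12 libraries of R1 and 4.32 to 13.4 CPM in the other 13 of R2. Each lay above every sow of its replicate outside these 3 at both stages, and T619 lost most of its excess between them. All 3 were conventionally housed LP sows, 2 subordinate and 1 intermediate. The other mitosis genes did not share this pattern. T93157 was the lowest of 14 for 6 mitosis genes at G98 and for 12 at L11, and at G98 T91403 and T619 were each the highest for 1, which was CENPE.

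The CENPE values between groups were recomputed without these 3 sows. They were picked by their CENPE values and all were conventional LP sows, so the shifts follow in part from that choice. The stage change was -0.41 ± 0.10 with them and -0.39 ± 0.10 without them (adjusted p = 0.000642 and 0.00133, edgeR). The difference between replicates at G98 did not pass with them (-0.54 ± 0.25, adjusted p = 0.0918) and passed without them (-0.51 ± 0.13, adjusted p = 0.00342), and at L11 it passed both ways (-1.16 ± 0.24, adjusted p = 0.000200, and -0.90 ± 0.16, adjusted p = 5.39e-05). The parity values, HP minus LP, went from -0.48 to -0.10 at G98 and from -0.60 to -0.16 at L11, and none passed. The housing values, enriched minus conventional, went from -0.36 to 0.07 at G98 and from -0.34 to 0.10 at L11, and none passed either. Its estimated counts ran from 68 to 1133 per library.

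**Figure D5:**
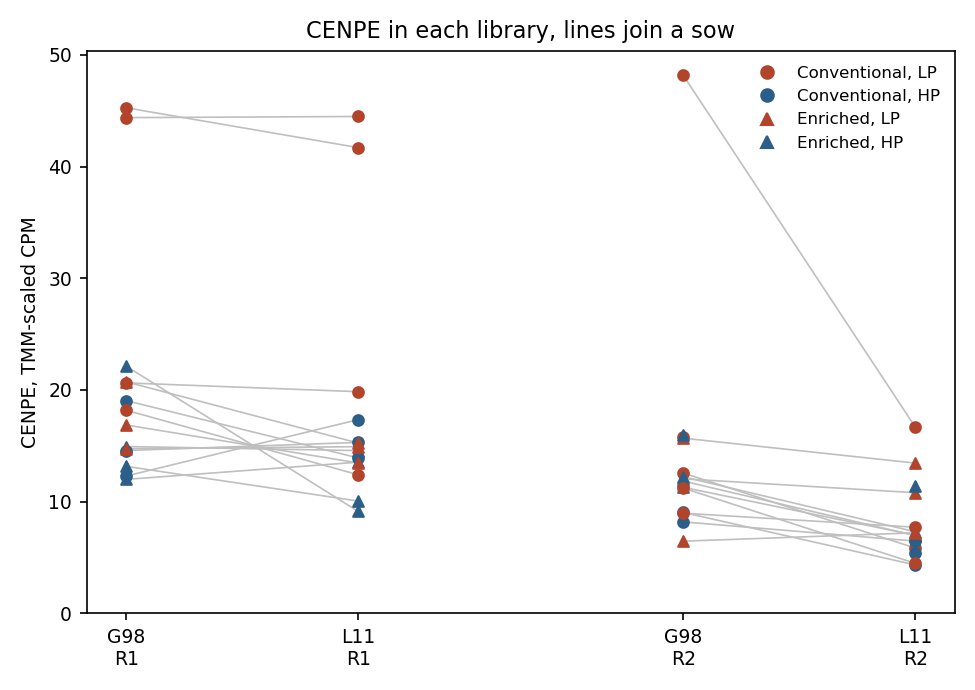
Each point is the TMM-scaled CPM of CENPE in 1 library, lines join the stages of a sow, shape gives housing and colour gives parity. The 2 high R1 sows stay above 40 CPM at both stages, and the high R2 sow goes from 48.2 to 16.7 CPM.

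With parity, no member passed the test at G98 by edgeR, beside 1.47% of all genes (0.562% higher and 0.904% lower in HP). An unadjusted p under 0.05 was seen for 4 members and 2057 of 12273 genes, and DESeq2 called 1 member and 459 genes. The 180 genes behind the 1.47% became 52 without T82166, 581 without T91919 and 2 with housing and rank added to the fit. The estimates, HP minus LP, were negative for 29 of the 32 genes, with a median of -0.19 beside -0.00069 for all genes. The smallest p belonged to POLD1, which ran from 21.3 to 31.4 CPM in HP (median 25.4) and from 24.7 to 38.6 CPM in LP (median 29.8). The groups overlapped widely, and the difference was -0.25 ± 0.07 (adjusted p = 0.0633). With the replicate as a block in the fit POLD1 passed, with -0.25 ± 0.07 (adjusted p = 0.0433), and it was the member DESeq2 called (adjusted p = 0.0294). With housing and rank added to the fit its value was -0.10 (adjusted p = 0.789). It also passed on leaving out T91384, T91522, T91919 or T93013 (adjusted p from 0.0301 to 0.0494). MCM7 had -0.20 ± 0.07 (adjusted p = 0.106), with medians of 90.1 CPM in HP and 98.0 CPM in LP, and E2F1 -0.33 ± 0.13 (adjusted p = 0.176), with 4.13 and 5.15 CPM. The library of T454, the highest for 17 mitosis genes in its group, is an LP library, and that of T91645, the lowest for 13, is an HP library. With parity at G98, 1 of 10 T cell markers and 1 of 7 monocyte markers were higher in HP, and the part of these values in the result was not tested.

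At L11 no member passed the test with parity by edgeR, beside 0.179% of all genes (0.0163% higher and 0.163% lower in HP). No member had an unadjusted p under 0.05 or was called by DESeq2, beside 940 and 60 of 12298 genes. The estimates of the 32 members were positive for 20 and negative for 12 (median 0.046). CENPE had the smallest p, with -0.60 ± 0.30 (adjusted p = 0.655), followed by MCM6 with 0.19 ± 0.10 (adjusted p = 0.689) and KIF20A with 0.24 ± 0.16 (adjusted p = 0.819). In the test of whether the stage change differed with parity, 6 members and 269 of 12729 genes had an unadjusted p under 0.05. By edgeR that test called no member and no gene (0%), and DESeq2 called no member either. Its term was positive for 30 of the 32 genes (median 0.20, beside -0.0062 for all genes), with the smallest p for PLK1 (0.43 ± 0.14, adjusted p = 1.00), MCM2 (0.25 ± 0.10) and the mitotic kinase AURKB (0.49 ± 0.22). These signs are not independent, as the members moved together in single sows. The median stage change of the mitosis genes ran from -0.56 in T619 (LP) to 0.95 in T83888 (HP), both of R2. PLK1 had medians of 12.1 CPM in HP and 13.7 CPM in LP at G98, and of 13.1 and 11.4 CPM at L11, with ranges that overlapped throughout. In the pathway lists the replication factor GINS4 was the only gene called with parity at G98, -0.41 ± 0.10 (adjusted p = 0.0305), and none was called at L11.

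With housing, no member passed the test at G98 by edgeR, beside 0.00815% of all genes, and none by DESeq2, beside 3 genes. Before adjustment 6 members and 643 of 12273 genes had a p under 0.05 by edgeR. The estimates, enriched minus conventional, were positive for 29 of the 32 genes (median 0.17, beside 0.00085 for all genes), and for 40 of the 44 other mitosis genes (median 0.17). MCM4 had medians of 37.8 CPM in conventional (28.2 to 51.4) and 44.0 CPM in enriched housing (30.9 to 65.2), which overlapped, and a difference of 0.22 ± 0.09 (adjusted p = 0.883). Cyclin B2, CCNB2, had 5.07 and 6.61 CPM and 0.44 ± 0.18 (adjusted p = 0.907), and MCM2 had 22.8 and 26.9 CPM and 0.24 ± 0.11 (adjusted p = 0.920). The highest G98 library of R2, T454, is an enriched one, and the lowest, T91645, a conventional one. All 10 erythroid markers had a positive estimate with housing at G98 (median 2.19), 8 of them with an unadjusted p under 0.05 and none called, and their part in the result was not tested.

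At L11 no member and no gene of 12298 passed edgeR's test with housing (0%), and no member passed by DESeq2. Its unadjusted p was under 0.05 by edgeR for 3 members and 735 genes. The estimates were positive for 25 of 32 genes (median 0.10). CDC45 had the smallest p, with medians of 17.3 CPM in conventional (14.2 to 24.1) and 21.2 CPM in enriched housing (18.4 to 27.6) and a difference of 0.26 ± 0.08 (adjusted p = 0.808). KIF23, a kinesin of cytokinesis, had 0.33 ± 0.13 and CCNB2 0.32 ± 0.13, both with an adjusted p of 0.808. In the test of whether the stage change differed with housing, no member and 890 of 12688 genes had an unadjusted p under 0.05. DESeq2 called no member and 5 genes there, and edgeR no member and no gene (0%). The smallest p there belonged to CDC45 (0.18 ± 0.11, adjusted p = 0.704), CDC20 (-0.28 ± 0.18) and CCNB1 (-0.24 ± 0.16).

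With dominance status, no member and no gene of 12595 passed the test at G98 by edgeR (0%). Before adjustment 3 members and 1814 genes had a p under 0.05 by edgeR. DESeq2 called 1 member, POLD1, beside 218 of 12595 genes. POLD1 ran from 21.3 to 26.9 CPM in dominant sows (median 25.1), from 24.7 to 38.6 CPM in intermediate sows (median 27.9) and from 25.8 to 35.8 CPM in subordinate sows (median 32.3). The dominant and subordinate ranges shared only 25.8 to 26.9 CPM, and the difference, dominant minus subordinate, was -0.41 ± 0.08 (adjusted p = 0.0539 by edgeR and 0.00374 by DESeq2). Of the 9 dominant sows 8 were HP, and of the 8 subordinate sows 7 were LP, so rank and parity are largely confounded here. With housing and parity added to the fit the value of POLD1 was -0.33 (adjusted p = 0.646). E2F1 had -0.46 ± 0.16 (adjusted p = 0.179), with medians of 4.09 CPM in dominant and 4.87 CPM in subordinate sows, and MCM7 had -0.22 ± 0.09 (adjusted p = 0.245).

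At L11 no member and no gene of 12613 passed edgeR's test with dominance status (0%). Before adjustment 3 members and 1191 genes had a p under 0.05 by edgeR. DESeq2 called no member and 59 genes. Sows T82133 and T82157 were there in both the intermediate and the dominant group. E2F1 had -0.45 ± 0.19 (adjusted p = 0.439), AURKB 0.44 ± 0.19 (adjusted p = 0.460) and KIF20A 0.42 ± 0.20 (adjusted p = 0.519). POLD1 had medians of 22.1 CPM in dominant (17.8 to 30.8) and 23.6 CPM in subordinate sows (22.8 to 27.8) there. The test of whether the stage change differed with rank passed for no member and no gene of 12939 by edgeR (0%), with 1 member, POLD1 (0.29 ± 0.12, adjusted p = 1.00), at an unadjusted p under 0.05 and none by DESeq2. PLK1 (0.34 ± 0.18) and MCM2 (0.21 ± 0.13) followed. Among all 12939 genes 372 had an unadjusted p under 0.05 in that test.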

How the data were processed

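The authors deposited 1 quantification table per library with an estimated count and a TPM per Ensembl gene. Per the submitters' processing notes, Sscrofa11.1, R 4.1.2 and DESeq2 were used; for the aligner, quantifier and annotation: not given in the sources used here. Of the deposited estimated counts above 0, 7.71% were not whole (tolerance 1e-06), and all were rounded to whole numbers. Depth, as the total of estimated counts per library, ran from 18096879 to 25302990.

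IDs were paired with symbols through a table of gene names, and 14692 of 24358 IDs (60.3%) matched. The coordinates came, by symbol, from an NCBI RefSeq gene table of Sscrofa11.1. The members and all gene lists were chosen with earlier results of these data known. Groups came from the labels, which give each sow's ear tag. Counts were scaled by TMM and tested with edgeR 4.0.16 (quasi-likelihood, limma 3.58.1, R 4.3.3) after its expression filter on the factor tested, with Benjamini-Hochberg adjustment over all genes and a threshold of 0.05. Stage was tested within sows, with the sow as a block. Pairing came from the ear tags, and the deviations of the 26 same-sow pairs correlated by 0.129 to 0.660, against a median of -0.043 for other sows. Rank was tested as dominant against subordinate in a fit over all 3 ranks. SE is the fold change over the root of F. CPM are TMM-scaled over all libraries, and between-gene levels use TPM.

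Among called members the 8 with the smallest p in each direction were given in full, all where 8 or fewer were called and 3 where none was. Up to 3 called genes per pathway list and direction could be named. On simulated data with 200 genes changed by a log2 value of 1, the tests recovered 100% for stage in R1 (12218 genes), 100% for parity at G98 (12244 genes) and 96% for the stage by replicate term (12620 genes). The simulation used a single fixed dispersion, no differences between sows, and changed only genes above a count floor. Its change was larger than most values of the members, so the recovery says nothing about changes of their size.

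Alternatives were DESeq2 1.42.0, its size factors, other count filters, a threshold of 0.1, fits with and without blocks, further factors in the fit, and leaving out single sows. A correction for transcript length as deposited (lowess of log counts, span 0.3), and the fits without the monocyte-rich library, without T454 and without the 3 sows high in CENPE, were chosen after seeing the data. Libraries of the same group differed beyond sampling noise (chi-square from 18.5 to 605 times its degrees of freedom in 75 pairs). Promoter sequences and motifs were not analysed here. The result of 1 gene of the checkpoint and repair list is not reported here.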

Additional observations from a re-analysis of the deposited data

Results flagged for a closer look

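Of the 32 genes, 3 mitosis genes had a stage change that differed between the experimental replicates by the test of the difference itself. The change from G98 to L11, R2 minus R1 on the log2 scale, was 0.53 ± 0.13 for BIRC5 (edgeR adjusted p = 0.00495), 0.70 ± 0.20 for UBE2C (adjusted p = 0.0110) and 0.30 ± 0.09 for NUSAP1 (adjusted p = 0.0253). BIRC5 was higher at L11 in 8 of 14 sows in R1 and in 10 of 12 in R2, UBE2C in 6 of 14 and 11 of 12, and NUSAP1 in 1 of 14 and 6 of 12. Among all genes 20.1% had a stage change that differed between replicates.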

How the results depend on the processing

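The counts of members called kept their direction, and stayed within 1.5 times their value, under the alternatives run, with the following exceptions. Without the replicate block of the sow the count for stage was 10 members, 3 higher and 7 lower, against 17. The term between R1 and R2 gave 5 members with DESeq2, beside 2838 of 12729 genes, and 8 at a threshold of 0.1, against 3. Parity at G98 gave 1 member, POLD1, with DESeq2, at a threshold of 0.1, and with the replicate block (-0.25, adjusted p = 0.0433), against 0. Rank at G98 gave 1, POLD1, with DESeq2 and at a threshold of 0.1, against 0. DESeq2 called 218 of 12595 genes there. How many of all genes passed at a threshold of 0.1 is not given here. Leaving out single sows gave 15 to 18 members for stage, 11 to 13 in R1, 11 to 13 in R2 and 0 to 1 for parity at G98, the 1 being POLD1 without T91384, T91522, T91919 or T93013. Those fits called 6793 to 7013 of all genes for stage, 4890 to 5238 in R1 and 5401 to 5899 in R2. In the other comparisons the replicate block changed no member's call. Among the members named for each comparison, most of them called there, 635 gene values were recomputed under the alternatives other than leaving out single sows: 601 kept their side of the threshold, 31 lost it, 15 of them under the length correction, 3 gained it and none reversed. Members outside those named are not in these counts, and some gained calls, such as TOP2A in R2 under the length correction. The length correction gave 12 members for stage, 11 in R1, 10 in R2, 2 for the term between replicates, and 14 between replicates at each stage. Among all genes it called 6741 of 12349 for stage, 5337 of 12250 in R1, 5506 of 12291 in R2 and 2327 of 12729 for the term. Without a filter on low counts CDC6 for stage, NUSAP1 for the term, and KIF23 and BUB1B between replicates at L11 lost their calls (adjusted p from 0.0502 to 0.0887). All genes called with parity at G98 ran from 52 to 581 on leaving out single sows, against 180, and were 459 with DESeq2 and 357 with the replicate block. At L11 they were 60, 37 and, with housing and rank in the fit, 0, against 22. The cause of these shifts was not tested. Depth limits the members with the fewest counts, such as CDK1 with 19 and AURKB with 24 in their lowest libraries. The values of parity, housing and rank rest on 8 to 15 libraries a group. At L11 these include the repeated libraries of sows T82133 and T82157, treated as independent.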
